A study of Mus musculus with 8 samples.

Results

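Polycomb domains at 6 developmental genes, Pax3, Otx2, Tfap2d, Pou3f3, Nr4a2 and Grik2, were compared between mouse germline stem cells kept in culture for about 5 months (5M) and about 60 months (60M). The genes were chosen by the width of their H3K27me3 peaks, which were among the broad ones at 5M, so that width is described here without a test. Each gene stands for a fixed interval of the peak lists: chromosome 1 from 78090000 to 78225000 for Pax3, chromosome 14 from 49255000 to 49310000 for Otx2, chromosome 1 from 19075000 to 19170000 for Tfap2d, chromosome 1 from 42735000 to 42785000 for Pou3f3, chromosome 2 from 56940000 to 56990000 for Nr4a2 and chromosome 10 from 49480000 to 49530000 for Grik2, whose interval covers the promoter region only. All peaks that touched an interval by at least 1 bp were taken whole. They numbered 160 of the 233295 peaks in the 8 lists.

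The cells are the cultured form of spermatogonial stem cells, derived from testis of an EGFP transgenic line (C57BL/6 Tg14(act-EGFP)OsbY01, called Green mice) with DBA/2 background. All groups thus carry the same EGFP transgene, and the genotype is otherwise labelled wild type. Both ages were grown in FGF2, GDNF and fetal bovine serum, and chromatin was precipitated with an antibody against H3K27me3 or H3K4me3, with 2 libraries per mark and age. Chromatin was sheared by sonication with or without MNase, and which library had which is not stated. The labels name no culture or animal of origin, so the spread between libraries of a group may be technical. Each library has 1 list of peaks, with borders in steps of 1000 bp. Read totals are not in the lists, so depth is unknown, and a stretch without a listed peak may still carry some of the mark. Positions follow the lengths of the mm9 chromosomes, for which no gene annotation was at hand. Peaks are therefore not assigned to an exon, intron or start site, and cell type markers were not checked.

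H3K27me3 is placed on nucleosomes by Polycomb repressive complex 2 and marks genes that are kept silent, many of them regulators of embryonic development. It typically spreads over CpG-rich promoters and into the surrounding DNA. H3K4me3 marks active or poised promoters. Genes that carry both are called bivalent, a state well known from pluripotent and germline cells, in which developmental regulators are silent but keep the promoter mark.

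Of the 6 genes, 5 encode transcription factors that act outside the germline. Pax3 is a paired-box and homeodomain factor of neural crest and muscle precursors, Otx2 a homeodomain factor of the forebrain, Tfap2d a member of the AP-2 family, Pou3f3 a POU-domain factor of the brain and kidney, and Nr4a2 an orphan nuclear receptor needed for midbrain dopamine neurons. Grik2 encodes a subunit of kainate-type glutamate receptors and is the only one that is no transcription factor.

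Promoter windows from RefSeq were matched for 5 of the 6 genes, with 10 windows in all, each running from 250 bases before to 50 bases after a transcript start. They are in GRCm38.p6, another build than the peak positions, so they were not placed against the peaks. The windows shown are the most upstream ones of Grik2, Pou3f3 and Nr4a2, the 3 loci whose H3K27me3 domain was covered far less at 60M, and of Tfap2d, where it was not. Capitals mark each CG, the pair of bases at which vertebrate DNA is methylated and which is dense in CpG islands.
Nr4a2 (chr2:57123954-57124253, minus strand): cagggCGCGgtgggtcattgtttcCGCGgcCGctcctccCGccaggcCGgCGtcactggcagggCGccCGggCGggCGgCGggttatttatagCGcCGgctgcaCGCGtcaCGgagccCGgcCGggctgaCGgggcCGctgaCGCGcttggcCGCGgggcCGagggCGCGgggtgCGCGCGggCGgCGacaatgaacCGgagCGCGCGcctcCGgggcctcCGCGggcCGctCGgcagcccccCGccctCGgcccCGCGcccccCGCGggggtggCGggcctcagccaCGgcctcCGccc
Pou3f3 (chr1:42695518-42695817, plus strand): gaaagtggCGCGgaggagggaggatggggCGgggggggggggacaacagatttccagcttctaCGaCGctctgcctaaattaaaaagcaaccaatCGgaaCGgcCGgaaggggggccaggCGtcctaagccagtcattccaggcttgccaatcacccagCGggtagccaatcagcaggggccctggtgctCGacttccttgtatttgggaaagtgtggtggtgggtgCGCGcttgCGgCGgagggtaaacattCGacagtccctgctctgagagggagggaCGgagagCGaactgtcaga
Grik2 (chr10:49788705-49789004, minus strand): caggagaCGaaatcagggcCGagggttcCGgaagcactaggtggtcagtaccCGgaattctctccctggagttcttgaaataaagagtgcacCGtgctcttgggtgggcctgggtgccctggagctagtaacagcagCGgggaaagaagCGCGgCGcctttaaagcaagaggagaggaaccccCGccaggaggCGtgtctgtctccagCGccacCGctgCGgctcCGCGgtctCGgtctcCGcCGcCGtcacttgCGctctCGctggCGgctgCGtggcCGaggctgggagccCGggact
Tfap2d (chr1:19102772-19103071, plus strand): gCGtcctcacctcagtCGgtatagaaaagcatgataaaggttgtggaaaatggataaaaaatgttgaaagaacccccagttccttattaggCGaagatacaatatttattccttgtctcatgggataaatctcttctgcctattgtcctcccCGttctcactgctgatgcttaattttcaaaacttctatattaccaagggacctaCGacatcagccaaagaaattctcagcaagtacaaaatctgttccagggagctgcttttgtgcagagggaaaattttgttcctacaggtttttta
The Nr4a2 window held 52 CG and 81.7% G or C. Only 0.575% of all 32851 windows of the table had as many CG. Grik2 held 26 CG (16.9% of all windows had as many) and Pou3f3 held 18 (29.7%). The windows at the other loci were poorer in CG, with 6 to 16 in the 4 windows of Otx2 and 5 to 10 in the 3 windows of Tfap2d, against a median of 7 over all windows. Nr4a2, Grik2 and Pou3f3, each with more CG than any window of the other matched genes, were also those whose domain was covered least at 60M. Among these 3 the ranks did not match, since Nr4a2 had the most CG but the largest share covered at 60M. The same 3 windows were also the richest in G or C. Grik2 held 64.7% and Pou3f3 60.3%, against at most 56.7% in the other windows. By the ratio of CG observed to CG expected from the C and G content, 1 Otx2 window (0.891) stood above Grik2 (0.836) and Pou3f3 (0.699). Nr4a2 was highest, at 1.04. These values describe 5 genes, without Pax3, and their relation to the marks was not tested. The letters TATAAA, searched on both strands, were in the Nr4a2 window and in 1 of the Otx2 windows, and in 13.6% of all windows.

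At 5M, the widest H3K27me3 peak of each locus measured 11 to 25 kb, and most loci had further, separate peaks of H3K27me3. The share of the later defined domain that H3K27me3 covered ran from 64.7% at Pou3f3 (5M library 1) to 100% at Otx2 and Grik2 (5M library 2). Over the 6 intervals it covered 123 kb in 5M library 1, 135 kb in 5M library 2, 88 kb in 60M library 1 and 79 kb in 60M library 2, or 129 ± 8.49 and 83.5 ± 6.36 kb (SD, n = 2). The widest peak of each locus, summed over the 6, came to 103 ± 4.24 kb at 5M and 51.5 ± 14.8 kb at 60M. Both measures were lower in both 60M libraries than in both 5M libraries. Two-sided exact permutation of 2 libraries against 2 cannot give a p below 0.333, so the ages are compared by whether their libraries overlap.

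**Figure D1:**
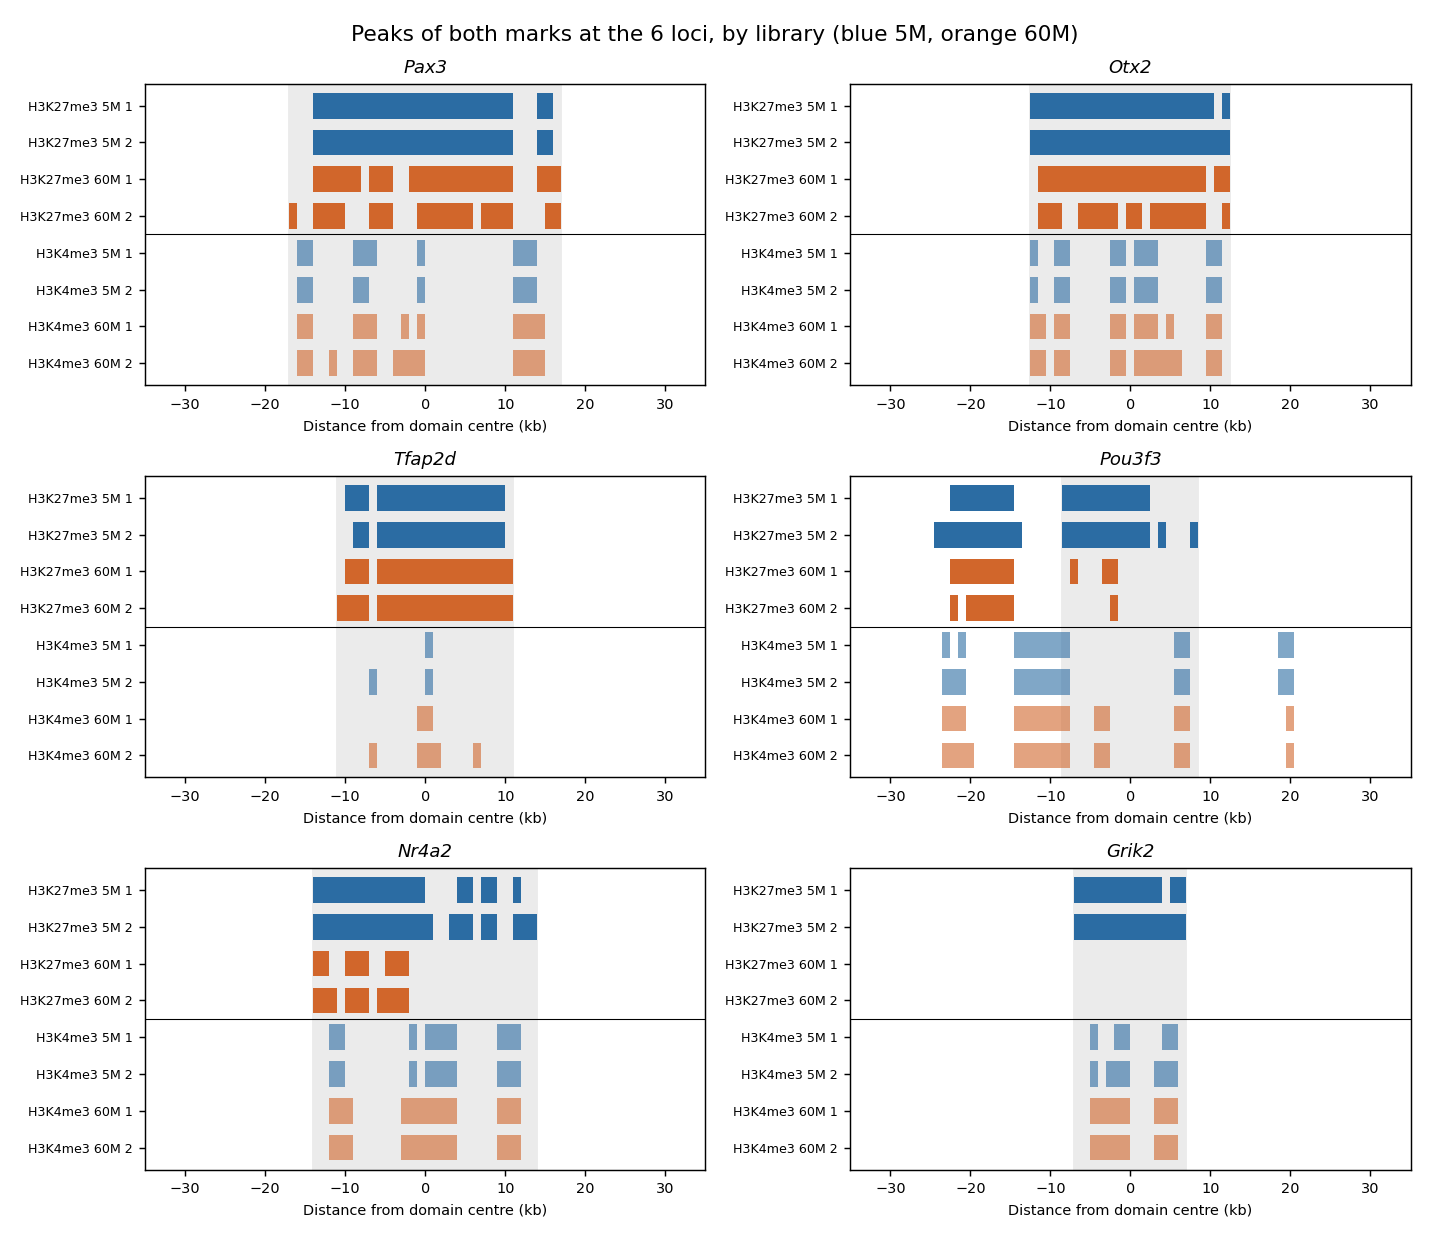
Peaks of H3K27me3 (upper 4 rows of each panel) and H3K4me3 (lower 4 rows, paler) at the 6 loci, 1 row per library, blue for 5M and orange for 60M. The x axis is the distance in kb from the centre of the domain, which is shaded, and peaks farther than 35 kb are not drawn. In the 60M rows H3K27me3 is broken up at Pax3, shorter and broken up at Nr4a2, shorter at Pou3f3 and missing at Grik2. At Otx2 it is split into 5 peaks in 60M library 2. At Tfap2d it is not shortened and has the same gap of 1 kb in all rows.

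The domains differed in how wide they were among all peaks at 5M. The Pax3 peak of 25 kb had no wider peak in either 5M list, and at Otx2 the widest peaks, of 23 and 25 kb, had 1 and 0 wider peaks. Tfap2d had 14 and 33 wider peaks, and Nr4a2 27 and 40. At Pou3f3 (11 kb in both 5M libraries) 91 and 146 peaks were wider, and at Grik2 (11 and 14 kb) 91 and 55. Pax3 and Otx2 thus held the widest peaks, while Pou3f3 and Grik2 lie lower among the 166 and 279 peaks of at least 10 kb. The whole 60M lists held fewer such peaks, 129 in library 1 and 87 in library 2. No peak exceeded 21 kb in 60M library 1 or 17 kb in 60M library 2. Mean peak width was 2.15 kb (5M library 1), 2.38 kb (5M library 2), 1.97 kb (60M library 1) and 1.95 kb (60M library 2). Narrower peaks at 60M were therefore not limited to these loci, although the total length covered by each list overlapped between the ages. Except to the right of Tfap2d, the nearest H3K27me3 peaks outside the intervals were 1 to 7 kb wide. They lay 41 to 1649 kb from the border. To the right of Tfap2d, a peak 27 kb (library 1) or 26 kb (library 2) beyond the border had a width of 10 and 12 kb at 5M. The nearest peaks on that side were 3 kb (library 1) and 1 kb (library 2) wide at 60M. The domain they belong to, of 13 kb (19196000 to 19208999), was covered over 10 kb in 5M library 1, 12 kb in 5M library 2 and 10 kb in each 60M library, so it was listed there in more pieces over about the same length.

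Grik2 showed the greatest difference in covered length, with a mean of 13.5 kb at 5M and 0 at 60M. By the widest peak Pax3 differed more, with means of 25 kb and 10 kb. A peak of 11 kb on chromosome 10 (49497000 to 49507999) and one of 2 kb (49509000 to 49510999) were listed in 5M library 1, and a single peak of 14 kb (49497000 to 49510999) in 5M library 2. Neither 60M library listed any H3K27me3 peak in the 50 kb interval. The broad peak stood at signal percentile 86.4 of its list in 5M library 1 and 93.6 in 5M library 2, below the widest peak of each of the other loci. H3K4me3 was present at both ages and covered 5 kb in 5M library 1, 7 kb in 5M library 2 and 8 kb in each 60M library. At 5M it formed 3 peaks, of which the leftmost 2 (1 kb, and 2 or 3 kb) were separate. At 60M a single peak of 5 kb (49499000 to 49503999) lay over both and the gap between them in each library.

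Nr4a2 kept a short remnant. The main H3K27me3 peak measured 14 kb (chromosome 2, 56952000 to 56965999) and 15 kb (56952000 to 56966999) at 5M, where 3 further peaks lay to its right in each library. At 60M each library listed 3 peaks of 2 to 4 kb between 56952000 and 56963999 and none farther right. The covered length was 19 kb and 23 kb in the 5M libraries, against 8 kb and 10 kb after 60M. The left part of the domain was still listed, in pieces, and the right part was not. Within the stretch of the unbroken 5M peak, both 60M libraries had a gap at 56955000, which overlapped an H3K4me3 peak of all 4 libraries, and another at 56959000, which held none. The right part holds most or all of the 2 strongest H3K4me3 regions of the locus. One of these, listed at 5M as peaks of 1 kb and 4 kb with a gap of 1 kb between them, was 1 peak of 7 kb (56963000 to 56969999) in both 60M libraries. The H3K4me3 peak at 56954000, at the left, was 2 kb wide at 5M and 3 kb at 60M in both libraries of each age.

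Pou3f3 carried 2 blocks of H3K27me3 with a strong H3K4me3 peak of 7 kb between them and overlapping their inner edges by at most 1 kb (chromosome 1, 42750000 to 42756999), which was the same length in all 4 libraries. The left block measured 8 and 11 kb at 5M. At 60M it measured 8 kb in library 1 and was split into 1 and 6 kb in library 2, so the ages overlapped there. The right block was a peak of 11 kb at 42756000 to 42766999 in both 5M libraries and was reduced to peaks of 1 and 2 kb in 60M library 1 and to 1 kb in 60M library 2. An H3K4me3 peak of 2 kb (42760000 to 42761999), found only in the 60M lists, lay within this right block. An H3K4me3 peak at the right edge of the interval went the other way, being 2 kb wide in each 5M library and 1 kb in each 60M library.

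At Pax3 the domain was listed over at least its former extent and was broken inside. The 25 kb peak (chromosome 1, 78187000 to 78211999) was identical in the 5M libraries. The same stretch was listed as 3 peaks of 6, 3 and 13 kb in 60M library 1 and as 4 peaks of 4, 3, 7 and 4 kb in 60M library 2. The right-hand peak ended at 78216999 in both 5M libraries and 1 kb farther right in both 60M libraries. A peak of 1 kb at 78184000, left of the former border, was added in 60M library 2. Covered length over the interval was 29 kb in each 5M library, 25 kb in 60M library 1 and 21 kb in 60M library 2. Every new break but the one at 78207000 in 60M library 2 overlapped H3K4me3 of both 60M libraries. The gap shared by both 60M libraries around 78193000 overlapped an H3K4me3 peak that was listed in all 4 libraries. The next shared gap, from 78197000 to 78198999 in library 1 and to 78199999 in library 2, held no H3K4me3 in the 5M libraries. At 60M an H3K4me3 peak of 1 kb at 78198000 lay in it in library 1, and in library 2 a peak of 4 kb from 78197000 covered it whole. At 5M the nearest H3K4me3 was a peak of 1 kb at 78200000, just right of the gap. A peak of 2 kb far to the left, at 78130000, was found at 5M only, in both libraries.

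At Otx2 the 60M libraries did not look alike. H3K27me3 covered 24 kb in 5M library 1, in 2 peaks, and 25 kb in 5M library 2, in 1 peak. In 60M library 1 it covered 23 kb with a main peak of 21 kb (chromosome 14, 49272000 to 49292999), which was the widest peak of that whole list. In 60M library 2 it covered 18 kb in 5 peaks, the widest of 7 kb. The narrowing of the widest peak at Otx2 therefore rests on 60M library 2, since the mean of 14 kb comes from 21 and 7 kb. All 4 gaps in that library overlapped H3K4me3 listed in all 4 libraries, and H3K4me3 at the fourth of 5 regions (from 49284000) covered 3 kb in both 5M libraries, 4 kb in 60M library 1 and 6 kb in 60M library 2.

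Tfap2d went against the other 5. Its main peak measured 16 kb (chromosome 1, 19088000 to 19103999) in both 5M libraries and 17 kb in both 60M libraries (19088000 to 19104999). In 60M library 2 no H3K27me3 peak in the list was wider. A peak of 2 to 4 kb lay 1 kb to its left in all 4 libraries, and all but 5M library 1 listed a peak of 1 or 2 kb farther right, within 19145000 to 19146999. In all, the locus covered 19 kb and 20 kb in the 5M libraries and 21 kb and 22 kb in the 60M ones. H3K4me3 here was slight, with 1 kb and 2 kb in the 5M libraries, then 2 kb and 5 kb, the lowest of the 6 loci at both ages, and the ages overlapped.

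**Figure D2:**
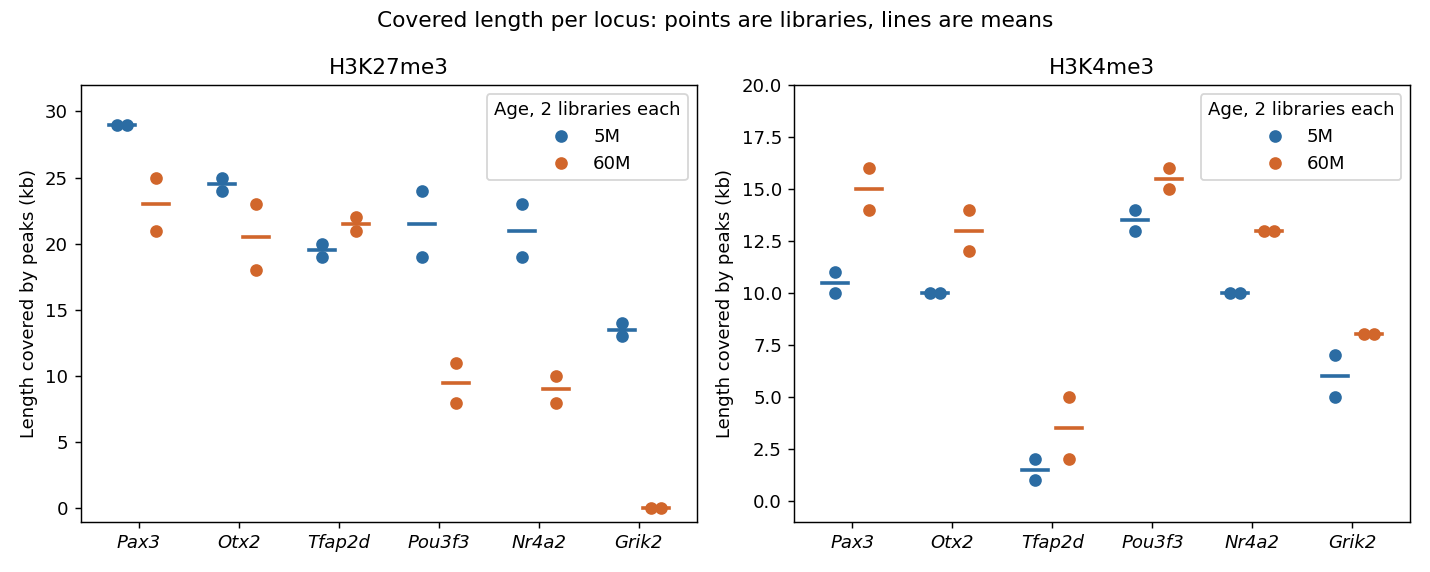
Length covered by peaks (kb, y axis) of H3K27me3 (left) and H3K4me3 (right) at each locus (x axis), with 1 point per library and a line at the mean of 2 libraries. H3K27me3 is lower in both 60M libraries at 5 loci and higher at Tfap2d, and H3K4me3 is higher in both 60M libraries at 5 loci.

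The loci were then set beside all H3K27me3 domains of the 4 lists, made by joining peaks of any library over gaps of up to 3 kb and keeping spans of at least 10 kb. There were 1476 such domains, and the largest in each interval spanned 34 kb at Pax3, 25 kb at Otx2, 22 kb at Tfap2d, 17 kb at Pou3f3 (its right block), 28 kb at Nr4a2 and 14 kb at Grik2. Within these, both 60M libraries covered less than both 5M libraries at 5 of 6 loci, as did 26.4% of all domains, and both covered more at 1 locus (14.4% of all domains). The share of the domain covered changed, in the mean of 2 libraries, by -96.4 percentage points at Grik2, -58.8 at Pou3f3, -42.9 at Nr4a2, -16.0 at Otx2, -11.8 at Pax3 and 9.09 at Tfap2d, against a median of -4.17 over all domains. No domain among the 1476 differed by more than Grik2, and 20 lay at or below the right block of Pou3f3 (both counts include the loci). The left block of Pou3f3 was a separate domain, in which the ages overlapped. Only 1.22% of domains had no peak in either 60M library and 1.15% none in either 5M library. These shares describe the loci, which were picked for the width of their H3K27me3 peaks with earlier results of these data known. The age at which that width was taken is not stated. The shares therefore support no statement about the loci.

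Domains that were wide at 5M in general were covered less at 60M. Of the 150 domains with a peak of at least 10 kb in both 5M libraries, all 6 loci among them, 50.7% were covered less in both 60M libraries and 4.67% more, and Grik2 was the only one (0.667%) with no peak at 60M. Picking domains by their width at one age can by itself lower the value at the other. Of the 60 domains with such a peak in both 60M libraries, picked the opposite way, 13 were covered less at 60M and 12 more.

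**Figure D3:**
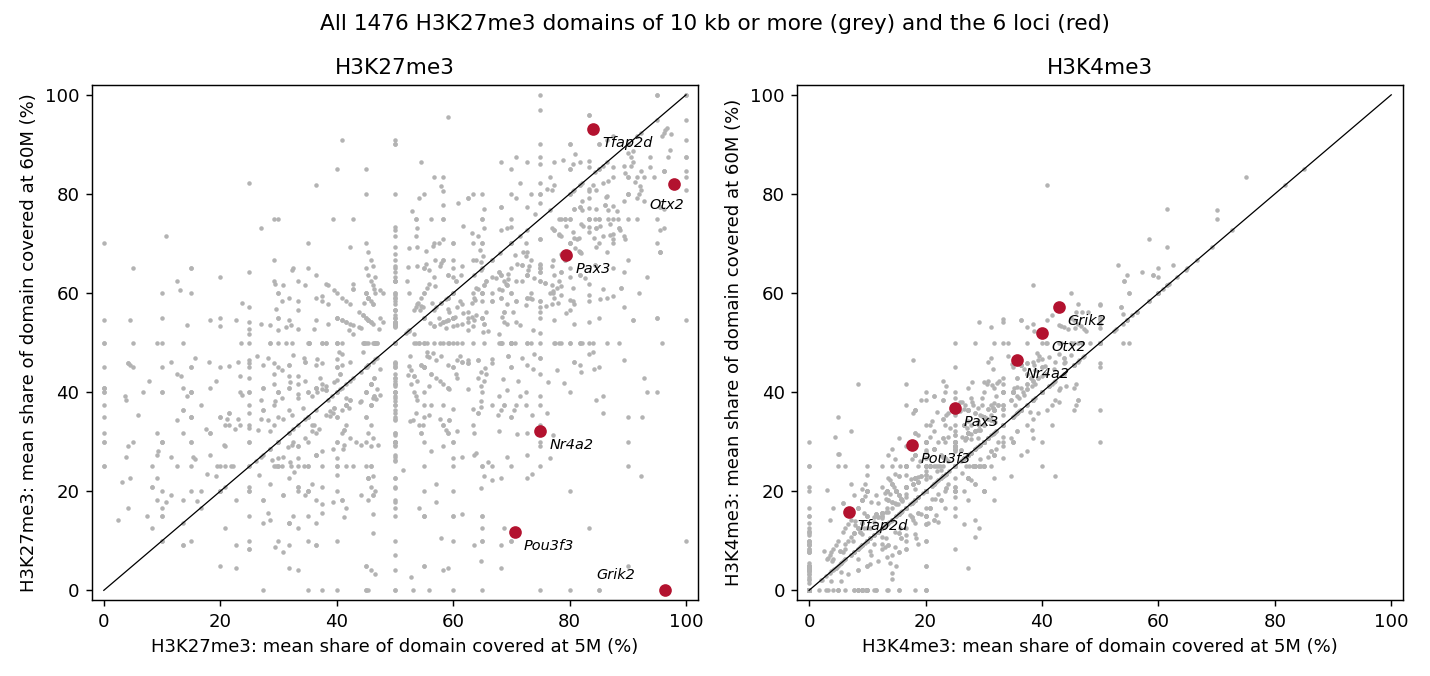
Mean share of each domain covered at 5M (x axis, %) and at 60M (y axis, %) for H3K27me3 (left) and H3K4me3 (right), with 1 grey point for each of 1476 domains and the 6 loci in red. The line marks equal shares. For H3K27me3, Grik2, Pou3f3 and Nr4a2 lie far under the line and Tfap2d over it, and for H3K4me3 all 6 lie over the line.

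Gaps did not behave in the same way at all loci. Inside the domains, Pax3 had 1 gap in both 5M libraries and 3 and 5 at 60M, the single locus with more gaps in both 60M libraries (14.4% of all domains). Of the 5 gaps in 60M library 2, the one at 78185000 is counted only because of the added peak at the left. Nr4a2 had 3 gaps in both 5M and 2 in both 60M libraries (9.35% of all domains had fewer), and all its gaps at 5M lay at or beyond 56966000, where no peak was listed at 60M. At Otx2 the number was 1 and 0 at 5M and 1 and 4 at 60M, at Pou3f3 0 and 2 and then 1 and 0, at Grik2 1 and 0 and then none, and Tfap2d had 1 gap in every library. These counts combine breaks with lost ends. A peak that was unbroken in both 5M libraries was listed in pieces in both 60M libraries at Pax3 and at Nr4a2, which also lost its right part. At Otx2 this was so in 60M library 2. At Pou3f3 the right block was left as 2 short peaks in 60M library 1 and 1 in library 2, and the left block was split in library 2. Summed over the 6 loci, gaps numbered 7 in each 5M library and 8 and 12 at 60M.

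Gaps often held H3K4me3. In the 6 domains, 15 of the 20 gaps at 60M (75.0%) and 9 of the 14 at 5M (64.3%) held H3K4me3 of both libraries of that age, and by length 64.9% and 76.9% of the gaps did. Of the length covered by H3K27me3 in the same domains, 21.3% at 60M and 20.6% at 5M carried H3K4me3. In all other domains of at least 10 kb, 48.1% of the gaps at 60M and 44.6% at 5M held such H3K4me3. By length, H3K4me3 lay there at 37.4% of the gaps at 60M and 31.9% at 5M, and at 16.1% and 19.5% of the covered length. Both marks were counted in bins of 1 kb, and the same H3K4me3 peak was counted once for each H3K27me3 library. No test was made of these shares.

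Of the 1 kb bins with H3K27me3 in both 5M libraries, 35 within the 6 domains had it in neither 60M library and 64 had it in both. H3K4me3 was present in both 60M libraries at 17 of the 35 bins (48.6%) and at 12 of the 64 (18.8%). Many of the former were already marked at 5M, where 11 of the 35 had H3K4me3 in both libraries, and 4 of the 35 had it in both 60M and neither 5M library. Of the 35 bins, 13 belonged to Grik2, 9 to Nr4a2, 8 to Pou3f3, 3 to Pax3 and 2 to Otx2. In the other domains of at least 10 kb the shares with H3K4me3 in both 60M libraries were 35.5% and 18.5%. In those with a peak of at least 10 kb in both 5M libraries they were 56.9% and 24.8%, so these shares at the 6 loci do not stand apart from other wide domains. H3K4me3 in both 60M and neither 5M library was more frequent at the loci. It was at 11.4% of the 35 bins and 7.81% of the 64, against 3.01% and 2.37% in the other domains. In the other domains wide at 5M it was at 3.7% and 3.61%. At the loci these were 4 and 5 bins, and the difference was not tested.

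The marks were also counted together, with libraries of the same replicate number set side by side. Over the 6 domains they overlapped across 23 kb (library 1) and 28 kb (library 2) at 5M, against 19 kb and 18 kb at 60M. H3K4me3 without H3K27me3 covered 15 kb and 12 kb at 5M, against 32 kb and 41 kb at 60M. Grik2 went from 4 and 7 kb with both marks to 0, with 8 kb of H3K4me3 alone in both 60M libraries. At Otx2 the overlap was 9 kb and 10 kb at 5M, against 10 kb and 8 kb at 60M, so both marks were still listed there together.

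H3K4me3 was not used to choose the loci, and it covered more at 60M. Over the 6 intervals it covered 50 kb and 53 kb in the 5M libraries, against 64 kb and 72 kb in the 60M libraries, or 51.5 ± 2.12 and 68.0 ± 5.66 kb (SD, n = 2). The difference of 16.5 kb had an exact two-sided permutation p of 0.333, the smallest that 2 libraries against 2 allow. By locus, the length in the 5M libraries and then the 60M libraries was 11 and 10 against 14 and 16 kb at Pax3, 10 and 10 against 12 and 14 kb at Otx2, and 13 and 14 against 15 and 16 kb at Pou3f3. At Nr4a2 it was 10 kb in both 5M and 13 kb in both 60M libraries. The 60M libraries were both higher at 5 of 6 loci, and Tfap2d overlapped because 5M library 2 and 60M library 1 both had 2 kb. Within the domains the count was also 5 of 6, where 19.7% of 1302 domains with H3K4me3 were covered more in both 60M libraries and 5.68% less. Among the domains with a peak of at least 10 kb in both 5M libraries, 39.3% were covered more and 2.0% less, so a longer H3K4me3 coverage was common in wide domains. A combination of less H3K27me3 and more H3K4me3 in both 60M libraries was found at Pax3, Otx2, Pou3f3, Nr4a2 and Grik2 and in 6.91% of the 1302 domains, and the reverse combination in 0.614%. The loci were chosen by H3K27me3 width, and all 6 are among the 150 domains wide at 5M. In those 150, less H3K27me3 (50.7%) and more H3K4me3 (39.3%) were each more common than over all domains (26.4% and 19.7%). The share of the 150 with both together was not counted.

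The H3K4me3 regions of these domains also stood higher among all H3K4me3 peaks. Ranks were compared after cutting each list to its 41637 strongest peaks, the length of the shortest list. Of the 17 regions that overlapped the 6 domains and were in all 4 cut lists, 17 had a higher signal percentile in both 60M libraries than in both 5M libraries. Over all H3K4me3 regions in the 4 cut lists this held for 37.0% (27.4% were lower), and for regions inside H3K27me3 domains of at least 10 kb for 68.9% (3.75% were lower), so the shift was shared by most regions inside such domains. The median shift was 12.6 percentile points in the 17 regions, 6.99 in all 1681 regions inside such domains and 0.464 in all 33115 regions. Neighbouring regions share libraries and loci and are not replicates.

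Single regions show the size of this shift. At Otx2 the region from 49284000 stood at the percentiles 20.7 and 19.7 at 5M and 35.4 and 62.2 at 60M. At Tfap2d the region from 19093000 stood at 18.5 and 18.1 at 5M and 38.4 and 49.8 at 60M, although H3K27me3 there was not covered less. The strongest region of Pou3f3, from 42750000, stood at 89.0 and 91.5 and then at 97.9 and 99.0. The 2 Grik2 regions moved from 59.3 and 59.6 to 70.9 and 73.3 and from 64.2 and 63.4 to 69.6 and 73.2. The percentile was higher in 60M library 2 than in 60M library 1 at all 17 regions, as it was at 86.9% of the regions inside domains of at least 10 kb and at 51.6% of all regions. The part of 60M library 2 in the size of the shift was not tested beyond this, and 60M library 1 alone lay above both 5M libraries at all 17.

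**Figure D4:**
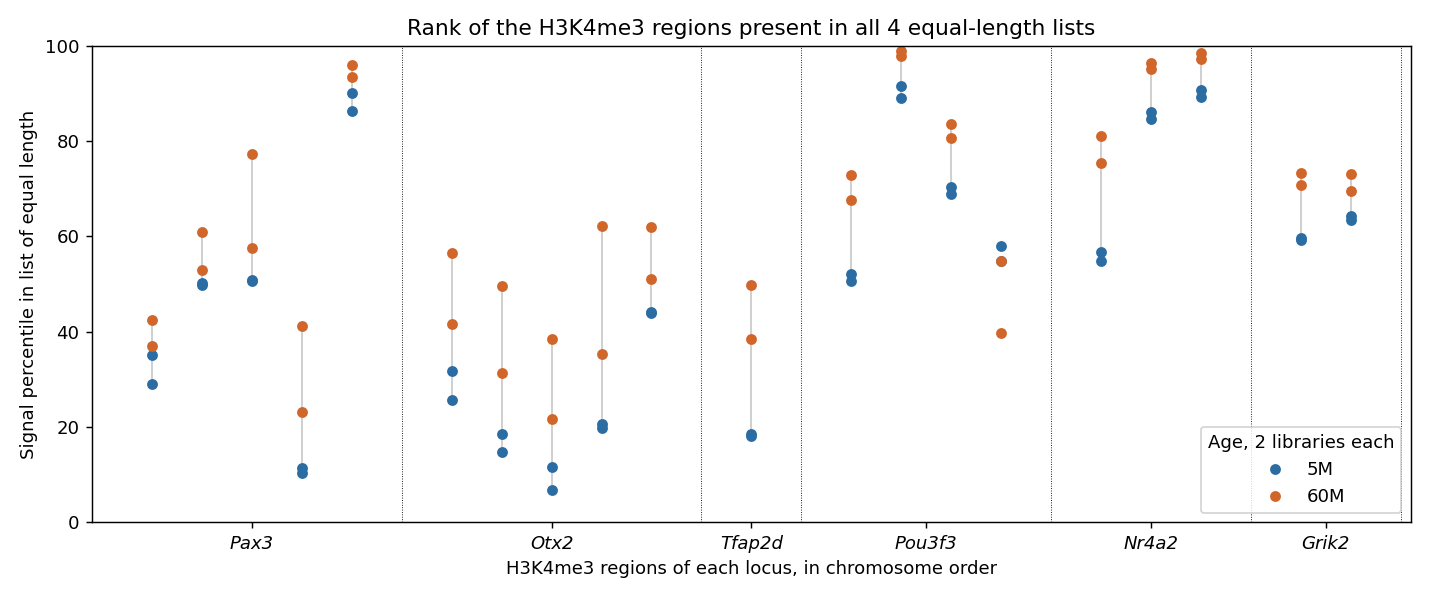
Signal percentile (y axis) of the 20 H3K4me3 regions of the loci present in all 4 lists of equal length, in chromosome order within each locus (x axis), with 2 blue points for the 5M libraries and 2 orange points for the 60M libraries. The orange points lie above the blue ones at 19 of 20 regions, the exception being the rightmost Pou3f3 region, outside the domain.

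Width of single H3K4me3 regions moved at fewer places. Of the 17 regions inside the domains that were listed in all 4 libraries, 8 were wider in both 60M libraries, 0 were narrower and 9 overlapped. In comparison 12.9% of the 1764 such regions inside domains of at least 10 kb were wider (1.13% narrower), and 7.4% of all 35250 shared regions (2.52% narrower). The widened regions lay at Pax3 (from 78197000 and from 78212000), Otx2 (from 49271000 and from 49284000), Tfap2d (from 19093000), Nr4a2 (from 56954000 and from 56963000) and Grik2 (from 49499000).

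For each locus, the other domain most like it over the 8 covered shares (4 libraries of each mark) was found by Euclidean distance. The closest matches were a domain of 19 kb on chromosome 14 (118621000 to 118639999) for Pax3 and one of 14 kb on chromosome 1 (4478000 to 4491999) for Otx2, both at a distance of 0.125. Tfap2d was nearest to a domain of 12 kb on chromosome 12 (88326000 to 88337999, distance 0.182), Pou3f3 to one of 10 kb on chromosome 2 (180191000 to 180200999, 0.166) and Nr4a2 to one of 28 kb on chromosome 2 (38189000 to 38216999, 0.196). Grik2 had no close match. Its nearest domain, of 10 kb on chromosome 8 (9151000 to 9160999), was at a distance of 0.46, with 90% covered by H3K27me3 in both 5M libraries, 0 and 10% at 60M, and 30% covered by H3K4me3 in every library, where Grik2 had 35.7 and 50% at 5M and 57.1% at 60M.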

How the data were processed

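The tools named in the submitters' processing notes are Bowtie 1.1.2 and CASAVA 1.8.4, and the named build is mm10. Peaks in the lists run past the mm10 ends on 9 chromosomes (1331 peaks), and past the mm9 ends only on chromosome 13 (2 peaks, by up to 688 bp), so positions were read as mm9 (lengths from GenomeInfoDb 1.38.1). What called the peaks is not given here. Deposited by the authors is 1 list per library with borders, a width, a maximum immunoprecipitation signal of unstated scaling, 2 columns of −log10 p-values (the one against the control stops at 15.95) and a q-value of at most 0.00097, per the file headers. The signal was used only to rank peaks within a list.

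The rule for the 6 genes gave their intervals, and all 6 are named. The genes, tests and lists were chosen with earlier results of these data known. Coverage, gaps and domains were computed in bins of 1000 bp with Python 3.11.15, numpy 2.4.6 and pandas 2.3.3, and the code was tested on simulated lists with planted gaps. Lists of H3K27me3 held 12002 to 14940 peaks and of H3K4me3 41637 to 47415. Planned lists of other developmental genes and of cell type markers need an annotation of mm9 and are not analysed here. Alternatives were equal list lengths, a signal cut at the list median, other joining distances, clipping to the interval and leaving out each library. Figures were drawn with matplotlib 3.10.9.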

Additional observations from a re-analysis of the deposited data

How the results depend on the processing

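H3K27me3 covered less in both 60M libraries at 5 loci and more at Tfap2d under all settings run for it: lists of equal length, peaks at or above the list median and each library left out. Leaving out a library cannot undo such a separation of the ages, so those settings say nothing about it. The cut to equal length changed none of these lengths, and the cut at the median changed them only at Tfap2d and Grik2. The difference over the 6 loci of -45.5 kb ran from -51.5 to -39.5 kb with 1 library left out, and that of the widest peaks, -51.5 kb, from -62.0 to -41.0 kb. For H3K4me3 the difference of 16.5 kb ran from 12.5 to 20.5 kb. It was 13.5 kb with peaks at or above the list median, where both 60M libraries were higher at 3 loci in place of 5. With lists of equal length or without 5M replicate 2 or 60M replicate 1 they were higher at 6. With the replicate number as a block the H3K4me3 difference was 16.5 kb with a two-sided exact permutation p of 0.5, the smallest that 2 pairs allow. The labels do not say that a number marks a shared culture.

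Gap counts depended on the settings. The difference of 3.0 gaps was 6.0 when peaks were joined over up to 1 kb, which splits the domains, and ran from 1.0 (without 60M replicate 2) to 5.0 with 1 library left out. For Nr4a2 the sign turned, to 2.0 more gaps at 60M, with joining over 1 kb, and for Pou3f3, where the difference ran from -1.5 to 0.5 gaps with 1 library left out, without 5M replicate 2. The overlap of both marks differed by -7.0 kb, and by -10 kb when bases had to be listed in both libraries of each mark. Of all domains, 389 were covered less at 60M (26.4%, against 14.4% covered more). When joined over 1 kb, 235 were covered less (32.6%, against 11.4%). Of those of at least 15 kb, 174 were covered less (30.1%, against 13.1%). Both these settings gave fewer domains. With 1 library left out the number covered less was 426 to 713, which rises by construction. Without 5M replicate 2, 426 were covered less and 422 more, so the lean of all domains towards 5M rests on that library (without 60M replicate 2 it was 478 against 428). Depth is unknown in these lists and limits every statement about a peak that is not listed.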
